A study of Mus musculus with 6 samples.

Results

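The transcripts of 6 matrix metalloproteinases (Mmp2, Mmp3, Mmp7, Mmp9, Mmp11 and Mmp14) and of the 4 tissue inhibitors of metalloproteinases (Timp1, Timp2, Timp3 and Timp4) were followed in the whole uterus of female mice at postnatal day 21. The 10 genes were chosen by symbol, and all 10 were among the 20637 genes listed in each library. The series holds 3 libraries from Nat10 f/f mice, which carry floxed alleles of Nat10, and 3 from Nat10 d/d mice, in which Nat10 is deleted. Nat10 encodes an RNA cytidine acetyltransferase. The labels give neither the strain, the Cre driver, the cells that lost the gene nor whether each replicate is 1 animal, so p-values measure the spread between these libraries. The comparison asks whether transcripts of matrix-degrading enzymes and their inhibitors differ when Nat10 is deleted.

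Matrix metalloproteinases are zinc-dependent proteases that are made as inactive precursors and cut collagens, elastin, fibronectin and basement membrane proteins. TIMPs bind to the active site of the processed enzymes and block it, so that matrix turnover depends on the balance of both families. In the uterus they are known for the remodelling of the stroma during postnatal growth, the cycle and implantation. Most of this control acts on the proteins, by secretion, activation and inhibition, which transcript levels do not show.

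Each protease is recognised by the zinc-binding site of its catalytic domain, which the rule of selection did not use. An in-frame search of the GENCODE M21 coding sequences (GRCm38) found the site in all 6 protease members, in none of the 4 TIMPs, and in 69 of 21901 coding genes (0.315%). It was present in 23 of 23 genes with an Mmp symbol, and 33 of the other holders were genes with an Adam or Adamts symbol, a related family of metalloproteinases. The 33 bases of each member are shown 5′ to 3′ because they are the feature that unites the proteases. Capitals mark the 3 codons for the histidines that hold the zinc ion.
Mmp2: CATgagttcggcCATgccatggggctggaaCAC
Mmp3: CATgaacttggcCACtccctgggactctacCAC
Mmp7: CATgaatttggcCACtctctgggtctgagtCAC
Mmp9: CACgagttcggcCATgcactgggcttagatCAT
Mmp11: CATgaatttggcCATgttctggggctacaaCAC
Mmp14: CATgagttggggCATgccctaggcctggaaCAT
Counted from the first base of the start codon, the site began at base 1207 in Mmp2, 1201 in Mmp9, 715 in Mmp14, 658 in Mmp3, 655 in Mmp11 and 649 in Mmp7. The 2 gelatinases, Mmp2 and Mmp9, thus had the site farthest from the start, and Mmp7 had the shortest coding sequence, 801 bases against 2190 in Mmp9.

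Values are FPKM (fragments counted per length of transcript and per depth of the library), which allow levels to be compared between genes. Total read numbers are unknown; judged from the lowest values, the deepest library had 1.262 times the depth of the shallowest. Nat10 checked the labels: it was 13.2, 16.4 and 9.95 FPKM in f/f and 5.57, 5.23 and 5.53 FPKM in d/d uteri, without overlap. Smooth muscle markers summed to between 3466 and 4340 FPKM and epithelial markers to between 547 and 708 FPKM in all 6 libraries while the 5 ovarian markers summed to 5.57 to 10.2 FPKM, most of it Inha (up to 9.24 FPKM), with Fshr and Zp3 listed at 0 throughout. Oviduct markers summed to 1.28 to 6.79 FPKM, and fat markers to 31.2 FPKM in control replicate 1 and 0.146 to 8.59 FPKM in the other libraries. Haemoglobin genes and Alas2, markers of blood, summed to 851 to 5581 FPKM in controls and 709 to 1723 FPKM in d/d uteri. Nat10 d/d replicate 2 stood apart: its 8 proliferation markers (Mki67, Top2a and others) summed to 206 FPKM, against 19.0 to 80.8 in controls and 19.5 and 10.4 in d/d replicates 1 and 3. That library held the highest or lowest value for 55.8% of all tested genes, and for 6 of the 8 members tested. Values without it are given beside each tested member.

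No tested member passed the test between Nat10 d/d and f/f uteri. A gene was tested if it reached 1 FPKM in at least 3 libraries, which held for 12640 genes and for 8 members; Mmp7 and Timp4 were too low. In limma, fitted on log2(FPKM + 1), 0 of the 8 tested members passed an adjusted p of 0.05, as did 0 of all genes tested (0%), and the smallest adjusted p of a member was 0.922. At an unadjusted p of 0.05, 0 members passed, where 4.98% of all tested genes did. These counts depended on the libraries: 1700 of 12531 genes passed without d/d replicate 2, again with 0 members, and 1397 of 12551 genes without d/d replicate 3, with 2 members (Timp1, unadjusted limma p 0.00672, and Mmp11, 0.0277; adjusted p 0.435 for both). Without d/d replicate 1, f/f replicate 1 or f/f replicate 3 it was 345, 363 or 352 genes and 0 members. With array quality weights, which weigh each library by its spread, 3730 genes and 1 member passed (Timp1, unadjusted limma p 0.0303, adjusted 0.132). The weights of d/d replicates 1, 2 and 3 were 3.74, 0.224 and 0.451, so the d/d side of that fit rests mainly on replicate 1. The f/f and d/d values overlapped for all 8 tested members, whereas they did not overlap for 10.7% of all tested genes. The members' log2 changes ran from -0.32 to 0.55 with a median of -0.07, against a median of 0.03 over all tested genes. Without d/d replicate 2 the members' median turned to 0.07 and that of all genes was 0.02.

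**Figure D1:**
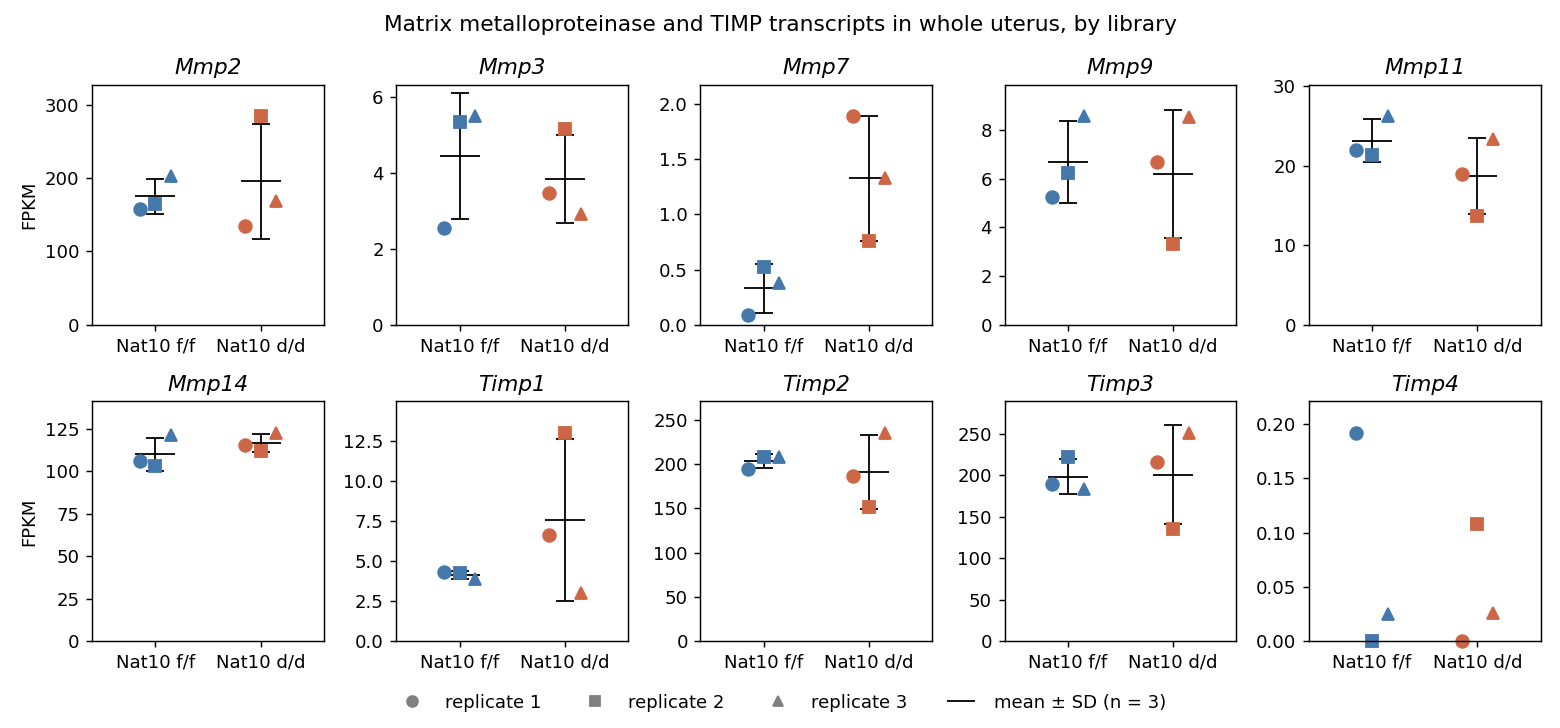
FPKM (y axis, linear, from 0) of the 10 members in 3 Nat10 f/f (blue) and 3 Nat10 d/d (orange) libraries; marker shape gives the replicate number and bars the mean ± SD, left out for Timp4, which was listed at 0 in some libraries. The d/d group spreads more widely than the controls for Mmp2, Mmp7, Mmp9, Mmp11, Timp1, Timp2 and Timp3, but not for Mmp3 and Mmp14. Mmp7 is the panel in which the groups do not overlap.

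The level of the members differed widely. Averaged over all 6 libraries, Timp3 (199.8 FPKM), Timp2 (197 FPKM) and Mmp2 (186 FPKM) led, and their ranges overlapped, so that no order can be given among them. In the controls they ranked 291, 280 and 337 among the 20637 genes, that is, within the top 1.63% of listed genes. Mmp14 followed at 113 FPKM, below Mmp2 in 6 of 6 libraries, and then Mmp11 at 20.9 FPKM. Mmp9 (6.44 FPKM), Timp1 (5.85 FPKM) and Mmp3 (4.15 FPKM) came next with overlapping ranges. Mmp7 (0.828 FPKM) and Timp4 (0.0585 FPKM) were the lowest.

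Mmp2 encodes gelatinase A, which cuts denatured collagen and basement membrane collagen, and is typically made by stromal cells. It lies on chr8:92827291-92853420 (GRCm38, plus strand). Its values were 158, 165 and 203 FPKM in the controls and 134, 285 and 169 FPKM in d/d replicates 1, 2 and 3. Replicate 2 was 1.4 times as high as the next library, replicate 1 was the lowest of all, and replicate 3 lay within the controls. The group means were 175 ± 24.3 and 196 ± 78.8 FPKM (SD, n = 3 each), a log2 change of 0.10 with a 95% interval of -0.52 to 0.71 (limma adjusted p 0.986). Without d/d replicate 2 the log2 change turned to -0.21.

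Mmp14 encodes the membrane-bound protease MT1-MMP, which activates the Mmp2 precursor at the cell surface with Timp2 as the bridge. The gene is on chr14:54431612-54445364. Control values were 106, 103 and 121 FPKM, and d/d values were 115, 112 and 123 FPKM. The 6 values lay close together, and d/d replicate 2 lay inside the control range here. The log2 change of 0.08 had the narrowest interval of the tested members, -0.17 to 0.34 (limma adjusted p 0.954). Under the alternative settings, each library left out included, it ran from 0.03 to 0.16 (0.11 without d/d replicate 2).

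Timp2, the inhibitor that takes part in Mmp2 activation, is on chr11:118301069-118355740 (minus strand). It had 194, 208 and 207 FPKM in the controls and 186, 152 and 235 FPKM in d/d libraries. The d/d values lay on both sides of the narrow control range, replicate 2 lowest and replicate 3 highest. The means were 203 ± 8 and 191 ± 42 FPKM (SD, n = 3 each; log2 change -0.11, 95% interval -0.50 to 0.28, limma adjusted p 0.967). Without d/d replicate 2 the change was 0.04.

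Timp3 encodes the inhibitor that stays bound to the extracellular matrix and also acts on ADAM proteases. Its values were 189, 223 and 184 FPKM in controls and 216, 135 and 251 FPKM in d/d uteri, again with replicate 2 lowest and replicate 3 highest. The log2 change was -0.02 with a 95% interval of -0.55 to 0.51 (limma adjusted p 0.993), and 0.24 without d/d replicate 2.

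**Figure D2:**
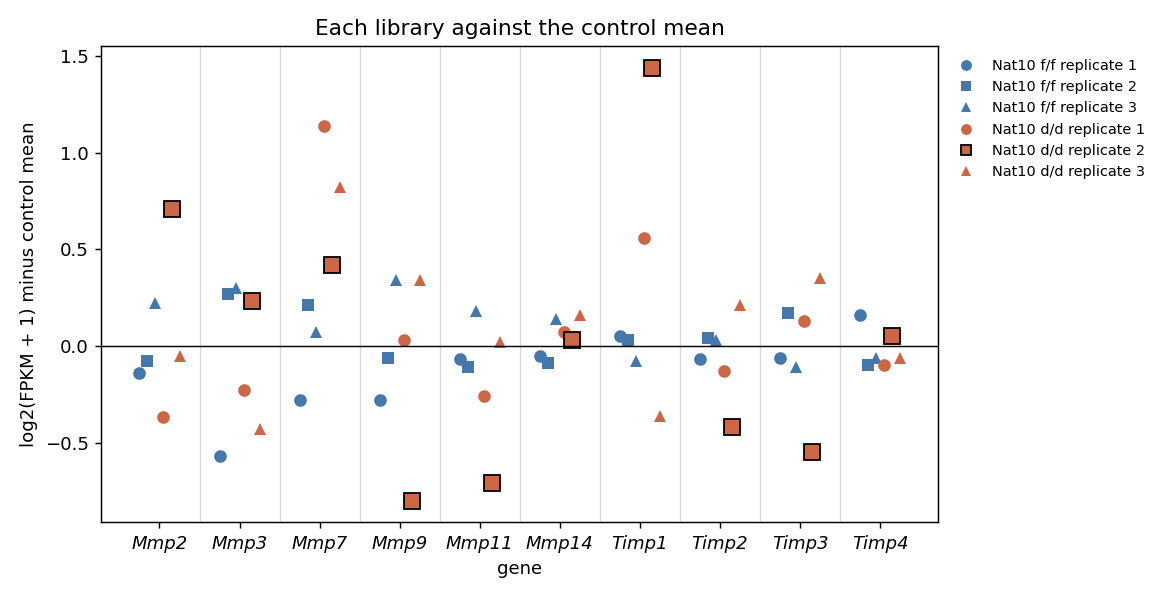
Each library's log2(FPKM + 1) minus the mean of the 3 controls (y axis) for the 10 members (x axis), with Nat10 d/d replicate 2 outlined. That library lies highest for Mmp2 (0.71) and Timp1 (1.44) and lowest for Mmp9 (-0.80), Mmp11 (-0.71), Timp2 (-0.42) and Timp3 (-0.55).

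In d/d replicate 2, Mmp2 was thus highest where Timp2 and Timp3 were lowest; the other members did not follow this split, with Timp1 highest and Mmp9 and Mmp11 lowest there. The ratio of Mmp2 to Timp2 FPKM, chosen after the values were seen and given as a description, was 0.815, 0.792 and 0.979 in controls and 0.721, 1.88 and 0.717 in d/d replicates 1, 2 and 3. The d/d replicates 1 and 3 were below every control and replicate 2 was above. Summed over the 6 protease members and divided by the sum of the 4 TIMPs, the ratio was 0.757, 0.692 and 0.924 in controls and 0.686, 1.40 and 0.668 in d/d libraries, with the same order. Mmp2 and Mmp14 together made up 88.9% to 94.5% of the summed protease FPKM, and Timp2 and Timp3 95.6% to 99.4% of the summed TIMP FPKM. These ratios therefore mostly reflect those 4 genes. In d/d replicate 2 the 6 stromal markers summed to 1227 FPKM, below the control range of 1531 to 1707 FPKM, mostly through Dcn (646 against 1033 to 1115 FPKM). Within that list Pdgfra and Wnt5a were also below the controls, Dpt was inside their range, and Lum (231 against 135 to 170 FPKM) and Col6a3 (78.1 against 60.8 to 69.5 FPKM) were above it. The macrophage markers of that library summed to 84.1 FPKM, below 106 to 130 FPKM in controls. The part of cell composition in the ratios was not tested, and in whole tissue fewer cells of a type cannot be told apart from less RNA per cell.

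**Figure D3:**
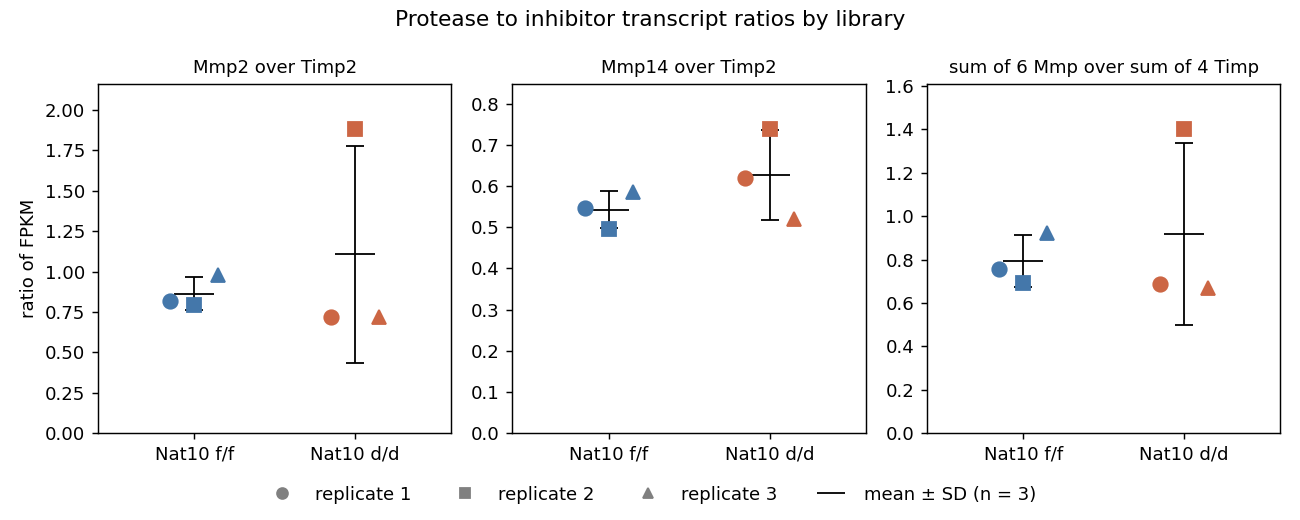
Ratios of FPKM (y axis, from 0) per library for Mmp2 over Timp2, Mmp14 over Timp2, and the 6 proteases over the 4 TIMPs, with the mean ± SD of 3 libraries per group. Nat10 d/d replicate 2 is highest in all 3 panels, at 1.88, 0.738 and 1.40.

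Mmp11, or stromelysin 3, is activated inside the cell by furin and is a gene of remodelling stroma. It had 21.9, 21.3 and 26.2 FPKM in the controls and 19.0, 13.7 and 23.3 FPKM in d/d uteri. Replicates 1 and 2 of the d/d group were below every control and replicate 3 was within the controls. The means were 23.1 ± 2.71 and 18.7 ± 4.83 FPKM (SD, n = 3 each), a log2 change of -0.32 (95% interval -0.77 to 0.13, limma adjusted p 0.922), which was the smallest adjusted p of the members. The change was -0.12 without d/d replicate 2 and -0.49 without d/d replicate 3. Mmp11 overlaps Chchd10 on the opposite strand by 155 exonic bases on chromosome 10, and Chchd10 had 24.3, 26.9 and 26.4 FPKM in controls and 20.1, 20.9 and 26.5 FPKM in d/d libraries, with d/d replicates 1 and 2 likewise lowest. Strandedness of the counting is not given, so reads of the shared stretch cannot be assigned.

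Mmp9, gelatinase B, is stored by neutrophils and made by macrophages and other cells. Its values were 5.25, 6.24 and 8.57 FPKM in controls and 6.70, 3.33 and 8.55 FPKM in d/d uteri. Replicate 2 of d/d was the lowest library, and the other d/d values lay within the controls. The log2 change was -0.15 (95% interval -0.85 to 0.55, limma adjusted p 0.982) and 0.18 without d/d replicate 2. The summed macrophage markers had their lowest value in the same library (84.1 FPKM). Neutrophil markers summed to 3.56 to 10.8 FPKM in controls and 3.09 to 10.5 FPKM in d/d libraries. Of their 8 genes, 5 stayed under 1 FPKM in every library, and in d/d replicate 2 most of the sum was Ltf (2.32 of 3.09 FPKM). The part of either cell type in the Mmp9 values was not tested.

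Timp1 encodes a secreted, inducible inhibitor. Its control values were close together, at 4.34, 4.26 and 3.87 FPKM, while the d/d values were 6.62, 13.0 and 3.03 FPKM. Replicates 1 and 2 of the d/d group were above every control, replicate 2 being 1.96 times as high as the next library, but replicate 3 was the lowest of all 6. The means were 4.16 ± 0.25 and 7.54 ± 5.03 FPKM (SD, n = 3 each), a log2 change of 0.55 (95% interval -0.37 to 1.47, limma adjusted p 0.926). This was the largest change among the 8 tested members, with the widest interval. It was 0.10 without d/d replicate 2 and 1.00 without d/d replicate 3.

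Mmp3, or stromelysin 1, degrades many matrix proteins and activates other proteases of the family. It had 2.54, 5.34 and 5.50 FPKM in controls and 3.48, 5.15 and 2.91 FPKM in d/d libraries, so that every d/d value lay inside the control range. The log2 change was -0.15 (95% interval -0.79 to 0.50, limma adjusted p 0.978), and -0.33 without d/d replicate 2. It became -0.43 when control replicate 1 was left out and 0.01 when control replicate 3 was. Of the stretches of 50 bases in Mmp3 transcripts, 8.39% also occur in other genes, most of them in Mmp10, so a part of these reads could have been split between both.

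**Figure D4:**
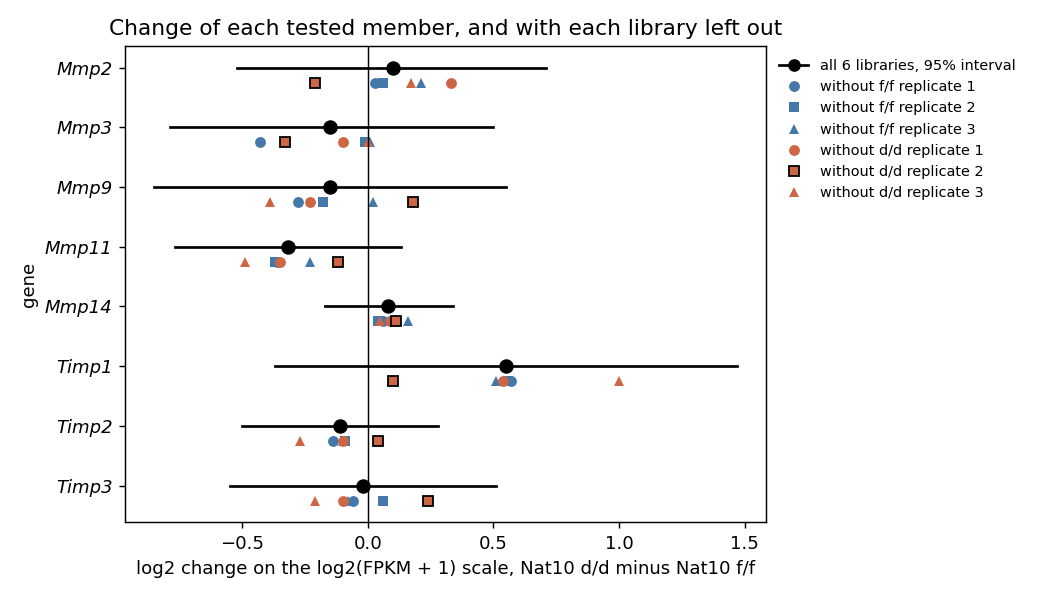
Log2 change on the log2(FPKM + 1) scale, Nat10 d/d minus f/f (x axis), of the 8 tested members (y axis): black points and lines give the estimate and 95% interval from all 6 libraries, coloured markers the estimate with 1 library left out. Every interval includes 0, and leaving out Nat10 d/d replicate 2 moves Mmp2, Mmp9, Timp2 and Timp3 across 0.

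Mmp7, or matrilysin, is the one member whose groups did not overlap. It is a small protease made by epithelial cells, uterine epithelium included, rather than by stroma. Its values were 0.0853, 0.523 and 0.382 FPKM in controls and 1.89, 0.757 and 1.33 FPKM in d/d replicates 1, 2 and 3, with means of 0.33 ± 0.223 and 1.33 ± 0.568 FPKM (SD, n = 3 each). Each d/d library was thus above every control, and d/d replicate 2 was here the lowest of its group. Mmp7 reached 1 FPKM in 2 libraries and was left out of the test. Among the 4105 genes that were above 0 but too low for the test, 4.48% had every d/d value above every control, so 1 such gene among the 2 untested members is no result about the family. Fitted without the filter on low values, Mmp7 had a log2 change of 0.79 (SE 0.21), an unadjusted limma p of 0.00765 and an adjusted p of 0.873. In that fit 5.29% of all genes had an unadjusted p under 0.05.

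Epithelial and gland markers were compared beside Mmp7. The 6 epithelial markers summed to 547 to 650 FPKM in controls and 608 to 708 FPKM in d/d uteri, with overlap. Most of this sum came from 3 keratin genes, whose groups overlapped, whereas Epcam (58.0 to 64.2 against 47.0 to 56.9 FPKM) and Wnt7a (14.8 to 24.7 against 9.65 to 13.8 FPKM) were, like Mmp7, higher in every d/d library, as were 6.12% of all tested genes. The sixth, Cdh1, had 44.0 to 49.8 FPKM in d/d uteri, inside the control range of 38.6 to 51.8 FPKM. The 3 gland markers summed to 15.2 to 16.9 FPKM in controls and 17.6 to 20.6 FPKM in d/d uteri, without overlap. Within that list Prom1 was higher in every d/d library (16.4 to 18.8 against 13.0 to 13.4 FPKM), while Foxa2, the factor that defines glands, had 1.14 to 1.75 FPKM in d/d and 2.06 to 2.72 FPKM in control uteri. Their part in the Mmp7 values was not tested. Mmp7, on chr9:7692090-7699585, also overlaps the antisense transcript AV064505 over part of its exons, and 7.36% of its 50-base stretches occur there.

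The sequence before the start of Mmp7 and of Mmp3 is shown because these 2 low, inducible members share a match that was not found in the other 6 members with a promoter entry. The 250 bases before each RefSeq start (GRCm38.p6) were searched on both strands for TGANTCA, the site of the AP-1 factors, for AGGAAG, a core of ETS-family (PEA3) sites, and for GGGCGG, the GC box; no match of one overlapped a match of another. RefSeq promoters were found for 8 of the 10 members, all but Mmp2 and Mmp9. These 8 have 9 promoters in the table, since Mmp7 has a second start further downstream. TGANTCA was found in 2 of the 9, that of Mmp3 and the first of Mmp7, against 6.75% of 32851 promoters; the second Mmp7 window (chr9:7692091-7692340) has no match. AGGAAG was found in 7 of the 9 and 29.5% of all promoters, and GGGCGG in 5 of the 9 and 32.7%. Both printed windows are on the plus strand, Mmp7 at chr9:7691840-7692089 and Mmp3 at chr9:7445572-7445821, and capitals mark the AP-1 match.
Mmp7: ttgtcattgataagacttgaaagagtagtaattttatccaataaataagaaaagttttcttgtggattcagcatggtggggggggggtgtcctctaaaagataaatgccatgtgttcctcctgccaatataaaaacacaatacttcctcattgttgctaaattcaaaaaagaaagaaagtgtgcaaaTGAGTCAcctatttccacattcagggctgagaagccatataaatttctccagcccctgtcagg
Mmp3: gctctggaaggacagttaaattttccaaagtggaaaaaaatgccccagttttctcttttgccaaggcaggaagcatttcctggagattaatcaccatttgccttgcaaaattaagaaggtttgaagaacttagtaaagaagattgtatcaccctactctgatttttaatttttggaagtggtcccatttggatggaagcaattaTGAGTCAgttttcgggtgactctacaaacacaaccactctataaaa
Counted so that the base before the start is -1, the match begins at -63 in Mmp7 and at -46 in Mmp3. The printed windows hold 38.0% and 37.6% G and C, and those of the other 6 members with an entry, proteases and TIMPs alike, hold 53.6% to 68.0%. The second Mmp7 window, without an AP-1 match, holds 53.2%, so the low share is that of the first Mmp7 window only. A match of letters is a description and not a bound site.

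Timp4, an inhibitor known mainly from heart and other muscle, was hardly detected. It was listed at 0.192, 0 and 0.0249 FPKM in controls and 0, 0.108 and 0.0263 FPKM in d/d libraries. No comparison can be drawn from such values. Timp4 lies within Syn2, a synapsin gene on the opposite strand, as Timp1 lies within Syn1 and Timp3 within Syn3. Syn2 had 3.62, 1.97 and 3.59 FPKM in controls and 1.63, 1.28 and 1.62 FPKM in d/d uteri, Syn1 stayed under 0.2 FPKM and Syn3 between 0.567 and 1.36 FPKM. Exonic overlap was 90 bases for Timp4, 1733 bases for Timp3 and 0 for Timp1, so reads of Syn2 could have been counted for Timp4. Reads of the stretch shared by Timp3 and Syn3 cannot be assigned, but Syn3 was far below the 135 to 251 FPKM of Timp3. Of the 50-base stretches of Timp3 transcripts, 21.4% occur in other genes, most of them in Syn3.

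Other genes of matrix turnover were examined in 4 lists, none of which held a gene past the threshold in limma. Of 17 other matrix metalloproteinases, 16 were listed and 7 tested. The tested genes had a median log2 change of -0.18, against 0.03 over all tested genes. Of them 6 were lower on average, as were 5486 of the 12640 tested genes. In limma 0 had an unadjusted p under 0.05, where 4.98% of all tested genes did. Mmp23 was the most abundant of these at 30.1 FPKM over all libraries, with controls at 33.5, 28.9 and 33.6 FPKM and d/d uteri at 25.2, 31.7 and 27.5 FPKM. Mmp15 (17.9 FPKM) and Mmp17 (12.5 FPKM), both membrane-bound enzymes, followed. Mmp17 had the smallest p, with a log2 change of -0.32 (limma adjusted p 0.922), before Mmp23 (-0.18) and Mmp19 (-0.27). The other 9 listed genes, among them the collagenases Mmp8 and Mmp13 and the macrophage elastase Mmp12, stayed under 1 FPKM in every library, and Mmp1b and Mmp20 were listed at 0 in all 6.

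Activators and further inhibitors formed the second list, with 21 listed and 17 tested genes, a median log2 change of -0.06 (0.03 over all tested genes) and 2 genes at an unadjusted p under 0.05 in limma, a level that 4.98% of all tested genes reached. Plat, tissue plasminogen activator, which generates the plasmin that can activate protease precursors, had 72.3, 83.1 and 93.4 FPKM in controls and 126, 135 and 117 FPKM in d/d uteri. The groups did not overlap, with a log2 change of 0.60 (SE 0.13; adjusted p in limma 0.806). Serpine2, an inhibitor of plasminogen activators and thrombin, had 43.8, 46.9 and 40.2 FPKM in controls and 57.5, 113 and 53.7 FPKM in d/d uteri, also without overlap (log2 change 0.68, limma adjusted p 0.922). The third by unadjusted p, above 0.05, was Lrp1, an endocytic receptor that clears proteases, with a log2 change of -0.40 (limma adjusted p 0.922) and overlapping groups. In all, 3 of the 17 tested genes (Plat, Serpine2 and Plaur, the urokinase receptor) were higher in every d/d library, where 6.12% of all tested genes were. Bsg, which encodes an inducer of metalloproteinases, was the most abundant at 273 FPKM, with a log2 change of -0.04, and Spock2, a matrix proteoglycan gene, had 81.7 FPKM and a log2 change of 0.20.

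Of the ADAM and ADAMTS proteases, 21 of 23 were tested, with a median log2 change of -0.16 and 1 gene at an unadjusted p under 0.05 in limma. That count is near the 4.98% of all tested genes at this level. Adamts5, which cuts the proteoglycans aggrecan and versican, had 14.0, 13.6 and 13.7 FPKM in controls and 9.35, 13.0 and 10.6 FPKM in d/d uteri (log2 change -0.31, limma adjusted p 0.922). Adamts5 and Adamts10 did not overlap between groups, or 2 of 21 genes in this direction against 4.6% of all tested genes. Adamts2, which processes procollagen, had a log2 change of -0.54, and Adamts10 one of -0.33 (limma adjusted p 0.922 for both). The most abundant, Adam15 and Adam10 at 41.0 FPKM each and Adamts1 at 28.0 FPKM, had log2 changes of -0.05, -0.03 and 0.01.

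The matrix proteins that these enzymes cut were the last list. All 12 matrix substrates were tested, 11 were lower on average in d/d uteri, as were 5486 of the 12640 tested genes, and their median log2 change was -0.34 (-0.49 without d/d replicate 2). Of these, 4 had an unadjusted p under 0.05, where 4.98% of all tested genes did, and Eln and Hspg2 were lower in d/d without overlap, which held for 4.6% of all tested genes. Eln (elastin) had a log2 change of -0.58, Fn1 (fibronectin) -0.83 and Hspg2 (perlecan, of basement membranes) -0.36, each with a limma adjusted p of 0.922. Col1a1, the main fibrillar collagen chain, had 394, 984 and 361 FPKM in d/d replicates 1, 2 and 3 against 677 to 765 FPKM in controls. Replicate 2 was thus highest for this collagen gene as for Mmp2, and replicates 1 and 3 were below the controls. Col3a1 and Col1a2 had log2 changes of -0.44 and -0.32. Of the 6 stromal markers, Lum, Col6a3 and Dpt were also below the controls in replicates 1 and 3 but not in replicate 2, whereas Dcn had the reverse order (1160, 646 and 1197 FPKM in d/d replicates 1, 2 and 3 against 1033 to 1115 FPKM), Pdgfra was lowest in replicate 2, and Wnt5a was below the controls in every d/d library. Of the 5 endothelial markers, Kdr was lower in every d/d library (18.5 to 20.6 against 27.4 to 28.1 FPKM), and the groups overlapped for the other 4. Their part in the substrate values, and whether substrates and enzymes differ in their change, was not tested.

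**Figure D5:**
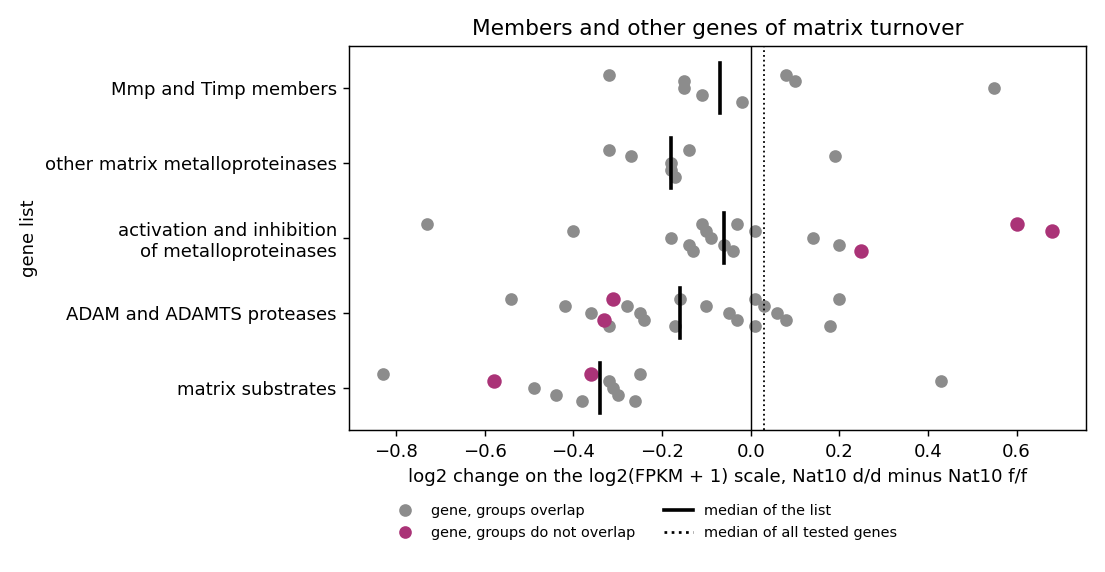
Log2 change on the log2(FPKM + 1) scale, Nat10 d/d minus f/f (x axis), of every tested gene of the members and the 4 other lists (y axis). Black bars give the list medians, from -0.06 to -0.34, the dotted line the median of all tested genes (0.03), and purple points the genes whose groups do not overlap, none of them a tested member.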

How the data were processed

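Whole uterus poly(A) RNA was sequenced from TruSeq RNA libraries, per the labels. The deposited values are FPKM made by the authors; HISAT2 2.2.1, Cufflinks 2.2.1 and mm10 are named in the submitters' processing notes, and the unit was inferred from Cufflinks and from sums that differ between libraries. Annotation, strandedness and gene filter are not given in the sources used here. Groups and replicate numbers came from the titles. Values were analysed as log2(FPKM + 1), which understates changes of low genes; genes at 1 FPKM in at least 3 libraries were tested between groups with limma (version 3.58.1, R 4.3.3; trend, two-sided, Benjamini-Hochberg over all genes tested, threshold 0.05). No 2 libraries held identical values. Tested on simulated data for this comparison (12640 genes, 200 of them changed), the fit recovered 96.1% of genes changed by 1.5 log2 units, with 5.92% of calls false. Smaller changes, such as those of the members, were not simulated. The simulated noise was independent, without an outlying library, so the recovered share does not carry over to these libraries. In the real data Nat10 itself, with a log2 change of -1.11, had a limma adjusted p of 0.669. Loci and coding sequences came from GENCODE M21, promoters from RefSeq. Members, lists and alternatives were chosen with earlier results of these data known. Named are all members and, of each other list, the 3 genes with the smallest p and the 3 most abundant; Plaur and the low metalloproteinases were named after their values were seen. Alternatives were a pseudocount of 0.1, no filter, 1 FPKM in every library, quantile normalization, median centring, no trend, array quality weights, a replicate block and leaving out each library.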

Additional observations from a re-analysis of the deposited data

How the results depend on the processing

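No tested member passed the threshold in any of 14 alternatives, and the smallest adjusted p of a member was 0.132, for Timp1 with array quality weights. Over all genes, array quality weights called 316 genes, and leaving out 1 library gave 0 to 12, the 12 without Nat10 d/d replicate 2; the other 7 settings gave 0. Of 112 member values under alternatives, 102 kept their direction and side of the threshold and 10 reversed. Array quality weights gave Nat10 d/d replicates 1, 2 and 3 weights of 3.74, 0.224 and 0.451. With them Mmp2 was -0.26, Mmp9 0.06 and Timp3 0.13. On the d/d side these values, and the 316 genes called, thus rest mainly on replicate 1. Leaving out 1 library gave -0.21 to 0.33 for Mmp2, -0.43 to 0.01 for Mmp3, -0.39 to 0.18 for Mmp9, -0.27 to 0.04 for Timp2 and -0.21 to 0.24 for Timp3, and the cause was not tested. Mmp11 stayed below 0 and Mmp14 and Timp1 above 0 in all 14. At an unadjusted p under 0.05 the genes higher and lower in d/d were 339 and 291, and 259 and 414 after quantile normalization or 248 and 376 after median centring. With the replicate number as a block, 0 genes and 0 members were called and 726 genes had an unadjusted p under 0.05. Same-numbered libraries did not deviate together (correlations of -0.341, -0.029 and 0.1 over genes), so the numbers were not treated as pairs. Depth is unknown, which leaves the error of the low values of Mmp7 and Timp4 without an interval.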

Other observations

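Mmp7 and Mmp3 lie in a cluster of 9 listed metalloproteinase genes that spans 427 kb of chromosome 9, from 7272514 to 7699585 (GRCm38). Of these, 2 were listed at 0 in every library and 3 were highest in Nat10 d/d replicate 1, which was seen after the values were known and was not tested. That library was the highest or the lowest for 36.7% of all tested genes. The share of genes in which it was the highest was not computed, and Mmp7 and Mmp13 were not among the tested genes. No conclusion about the cluster is drawn from the count. Mmp10, stromelysin 2, had 3.16 FPKM there against 0.939 to 1.52 FPKM in the other 5 libraries. Mmp13 had 0.176 FPKM there and 0.0232 to 0.0847 FPKM elsewhere, and Mmp7 had 1.89 FPKM. Mmp3, in the same cluster, had 3.48 FPKM in that library, inside the range of the others. The summed neutrophil and macrophage markers of that library, 10.5 and 112 FPKM, lay inside the control ranges of 3.56 to 10.8 and 106 to 130 FPKM. The largest part of the neutrophil sum there was Ltf, at 5.19 FPKM against 2.02 to 2.78 FPKM elsewhere, so that sum leans on a single gene. The summed epithelial (660 FPKM) and gland (17.6 FPKM) markers of d/d replicate 1 lay above the control ranges of 547 to 650 and 15.2 to 16.9 FPKM. Most of the gland sum was Prom1 (16.5 FPKM), while Foxa2 was the lowest of the 6 libraries at 1.14 FPKM and Spink1 was listed at 0.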
